A study of Mus musculus with 2 samples.

Results

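Ccr3, Bank1, Igfbp6, Nxpe5 and Adamdec1 were examined in single-cell RNA sequencing of J558 allografts, as 5 of the 32285 features counted. They were chosen by their measured level in monocyte/macrophage-like cells: among genes most abundant in those cells of the vehicle library, they had the lowest TAK-931 to vehicle ratio. The difference between the libraries in these cells is therefore given as a description, with no test. J558 is a mouse plasmacytoma, a tumour of antibody-secreting cells, and was grown under the skin of the flank in female BALB/c mice with an intact immune system. One group received 0.5% methylcellulose by mouth (vehicle) and the other TAK-931, an inhibitor of the replication kinase CDC7, at 60 mg/kg once daily, and both were taken after 6 days of dosing. There was 1 library per group, so no spread between animals could be measured, and treatment cannot be told apart from any other difference between the libraries. Every interval is a 95% interval that covers counting error only.

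The 5 genes have unrelated functions. Ccr3 encodes the eotaxin receptor, a chemokine receptor best known from eosinophils, basophils and some T cells. Bank1 encodes a B cell adaptor that links antigen receptor and Toll-like receptor signalling to kinases. Igfbp6 encodes a secreted protein that binds insulin-like growth factors, typically IGF-II, and is made by fibroblasts. Adamdec1 encodes a secreted metalloprotease of the ADAM family known from gut macrophages and dendritic cells, and Nxpe5 belongs to the neurexophilin and PC-esterase domain family, whose roles are little known. Tumour macrophages arise largely from blood monocytes, and they lose monocyte genes such as Ly6c2 and Chil3 as they gain C1q complement genes and other macrophage genes. Patrolling or non-classical monocytes are set apart by Ace and Treml4.

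On the GRCm38 (mm10) build, Ccr3 (ENSMUSG00000035448) is at chr9:124021972-124031689 on the plus strand and Bank1 (ENSMUSG00000037922) at chr3:136053363-136326066 on the minus strand. Igfbp6 (ENSMUSG00000023046) is at chr15:102144362-102149511 on the plus strand, Nxpe5 (ENSMUSG00000047592) at chr5:138225898-138253363 on the plus strand, and Adamdec1 (ENSMUSG00000022057) at chr14:68563380-68582095 on the minus strand. All 5 are protein-coding and none overlaps another gene on its own strand, while Bank1 overlaps the opposite-strand gene Gm31243. The 250 bases before each gene's RefSeq start are printed because the genes were low together in 1 library and lie on different chromosomes. They were matched by symbol in RefSeq's promoter windows (GRCm38.p6), which held 4 of the 5 genes: Ccr3 at chr9:124021721-124021970, Bank1 at chr3:136326067-136326316, Igfbp6 at chr15:102143936-102144185 and Nxpe5 at chr5:138225654-138225903. Except for Bank1, the RefSeq starts differ from the gene starts given above, by 1 base for Ccr3 and by more for Igfbp6 and Nxpe5, so that the Igfbp6 window ends before that start and the Nxpe5 window runs just past it. Each is written 5′ to 3′ on the strand of its gene, and capitals mark matches to the macrophage factor motifs searched.
Ccr3: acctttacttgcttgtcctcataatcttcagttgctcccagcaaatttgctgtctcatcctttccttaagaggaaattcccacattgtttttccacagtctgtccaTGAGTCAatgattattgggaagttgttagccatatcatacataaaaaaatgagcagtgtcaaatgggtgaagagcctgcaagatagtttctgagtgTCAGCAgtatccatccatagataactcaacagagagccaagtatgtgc
Bank1: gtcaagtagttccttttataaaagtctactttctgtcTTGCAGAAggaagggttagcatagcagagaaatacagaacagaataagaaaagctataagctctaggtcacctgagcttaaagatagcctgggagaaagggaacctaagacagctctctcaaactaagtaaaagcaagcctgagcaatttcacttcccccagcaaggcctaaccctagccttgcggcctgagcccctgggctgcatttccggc
Igfbp6: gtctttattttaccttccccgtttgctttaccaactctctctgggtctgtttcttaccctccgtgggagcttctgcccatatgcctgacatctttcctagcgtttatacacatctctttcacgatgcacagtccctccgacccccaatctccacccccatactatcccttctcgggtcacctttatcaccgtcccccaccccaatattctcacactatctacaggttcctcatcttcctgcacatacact
Nxpe5: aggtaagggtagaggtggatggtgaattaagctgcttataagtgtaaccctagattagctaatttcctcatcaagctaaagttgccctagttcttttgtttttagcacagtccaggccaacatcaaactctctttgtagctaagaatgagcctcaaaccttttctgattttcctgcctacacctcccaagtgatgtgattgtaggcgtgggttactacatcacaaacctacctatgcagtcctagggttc

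Both strands were searched for PU.1 (GAGGAAG), AP-1 (TGANTCA), MAF (TGCTGA, whose other strand reads TCAGCA) and C/EBP (TTGCNNAA). The MAF and AP-1 letters can overlap by 3 bases, but their matches in the Ccr3 window lay apart. The Ccr3 window held 1 AP-1 match 144 bases before the start and 1 MAF match 48 bases before it. The Bank1 window held 1 C/EBP match 213 bases before the start. The Igfbp6 and Nxpe5 windows held none of these letters. Of 32851 promoter windows of this length, 6.75% held the AP-1 motif, 16.1% the MAF motif, 9.56% the C/EBP motif and 10.6% the PU.1 motif, so the 4 windows had no motif in common.

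The vehicle library held 4565 cell barcodes with 144767193 UMIs (unique molecular identifiers, each of which stands for 1 captured transcript) and the TAK-931 library 6558 barcodes with 77369283 UMIs. A barcode was kept when it had over 2000 genes and less than 15% of its UMIs from mitochondrial genes, which left 3441 vehicle and 3488 TAK-931 cells with medians of 40504 and 15097 UMIs. The libraries had 8 barcode sequences in common, 1 of them among kept cells and 0 among monocyte/macrophage-like cells. Cells were clustered over both libraries and the clusters named from marker lists. Monocyte/macrophage-like cells, named from markers such as Csf1r, Adgre1, C1qa, Lyz2 and Cd68, numbered 214 in the vehicle library and 2009 in the TAK-931 library, with medians of 10408.5 and 14469 UMIs. J558 plasmacytoma-like cells numbered 3006 and 94, and serve here as the background of free RNA, since vehicle cells were mostly tumour cells.

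In the vehicle library 241 kept cells held a UMI of at least 1 of the 5 genes, and in the TAK-931 library 465. To locate them, levels were given as CPM (counts scaled to a total of 1000000), the UMIs of a gene relative to all UMIs summed over the cells of a class. Of the kept vehicle UMIs of Ccr3, 98.6% lay in monocyte/macrophage-like cells, as did 96.8% of those of Adamdec1 and 90.3% of those of Nxpe5. Kept vehicle cells thus carried these genes almost wholly in the monocyte/macrophage-like class. Vehicle barcodes left out by the filter, which were given no class, held 9.21% of all Ccr3, 9.52% of all Adamdec1 and 8.19% of all Nxpe5 UMIs. Bank1 and Igfbp6 were less restricted, with 53.3% and 46.0% in that class.

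The rest of vehicle Bank1 was mostly in the tumour cells, where 50 UMIs were spread over 40 of 3006 cells (41.0% of the kept Bank1 UMIs). Relative to all UMIs this was 0.376 CPM (exact Poisson interval 0.279 to 0.495) against 24.1 CPM in monocyte/macrophage-like cells. The rest of vehicle Igfbp6 was mostly in stromal and dendritic cells. Fibroblast-like cells held 23.3% of its UMIs at 39.5 CPM, endothelial-like cells 13.5% at 11.9 CPM and dendritic-like cells 9.82% at 12.2 CPM. A count of 0 for Ccr3 in 3006 J558 plasmacytoma-like cells allows a share of cells with a UMI of up to 0.0998%.

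In monocyte/macrophage-like cells each gene had a higher level in the vehicle than in the TAK-931 library. Ccr3 had 136 vehicle UMIs, 50.5 CPM (42.4 to 59.7), and 53 TAK-931 UMIs, 1.61 CPM (1.20 to 2.10), a log2 ratio of -4.97 (-5.46 to -4.51). Bank1 had 65 vehicle UMIs, 24.1 CPM (18.6 to 30.8), and 42 TAK-931 UMIs, 1.27 CPM (0.918 to 1.72), a log2 ratio of -4.24 (-4.84 to -3.66). Igfbp6 had 75 and 76 UMIs, 27.8 CPM (21.9 to 34.9) and 2.30 CPM (1.82 to 2.88). Raw UMIs of Igfbp6 were thus near equal, while the TAK-931 library held over 9 times as many cells of the class.

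Nxpe5, with the most UMIs of the 5, had 243 vehicle UMIs, 90.2 CPM (79.2 to 102.3), and 256 TAK-931 UMIs, 7.76 CPM (6.84 to 8.77). Adamdec1 had 92 and 97 UMIs, 34.2 CPM (27.5 to 41.9) and 2.94 CPM (2.38 to 3.59). The log2 ratio was -3.60 for Igfbp6 (-4.07 to -3.12) and -3.54 for both Nxpe5 (-3.80 to -3.28) and Adamdec1 (-3.96 to -3.11). The intervals of these 3 genes overlapped one another, and the interval of Ccr3 lay below those of all 3. All 5 together gave 611 and 524 UMIs, 227 and 15.9 CPM.

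All 5 were thus over 8-fold lower in the TAK-931 library, the side of the contrast by which they were picked, and 0.283% of the 13446 genes counted in this class were. The median log2 ratio over all those genes was 0.0031, and over the 5295 genes with at least 50 UMIs in each library it was -0.10. Just outside the 5 by the same ranking stood Ptgs1, the cyclooxygenase-1 gene, at a log2 ratio of -3.26. It was followed by Pxdc1 at -2.95, Mmp13, an interstitial collagenase, at -2.93, P2ry13, an ADP receptor, at -2.93 and Cela1, an elastase, at -2.59.

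**Figure D1:**
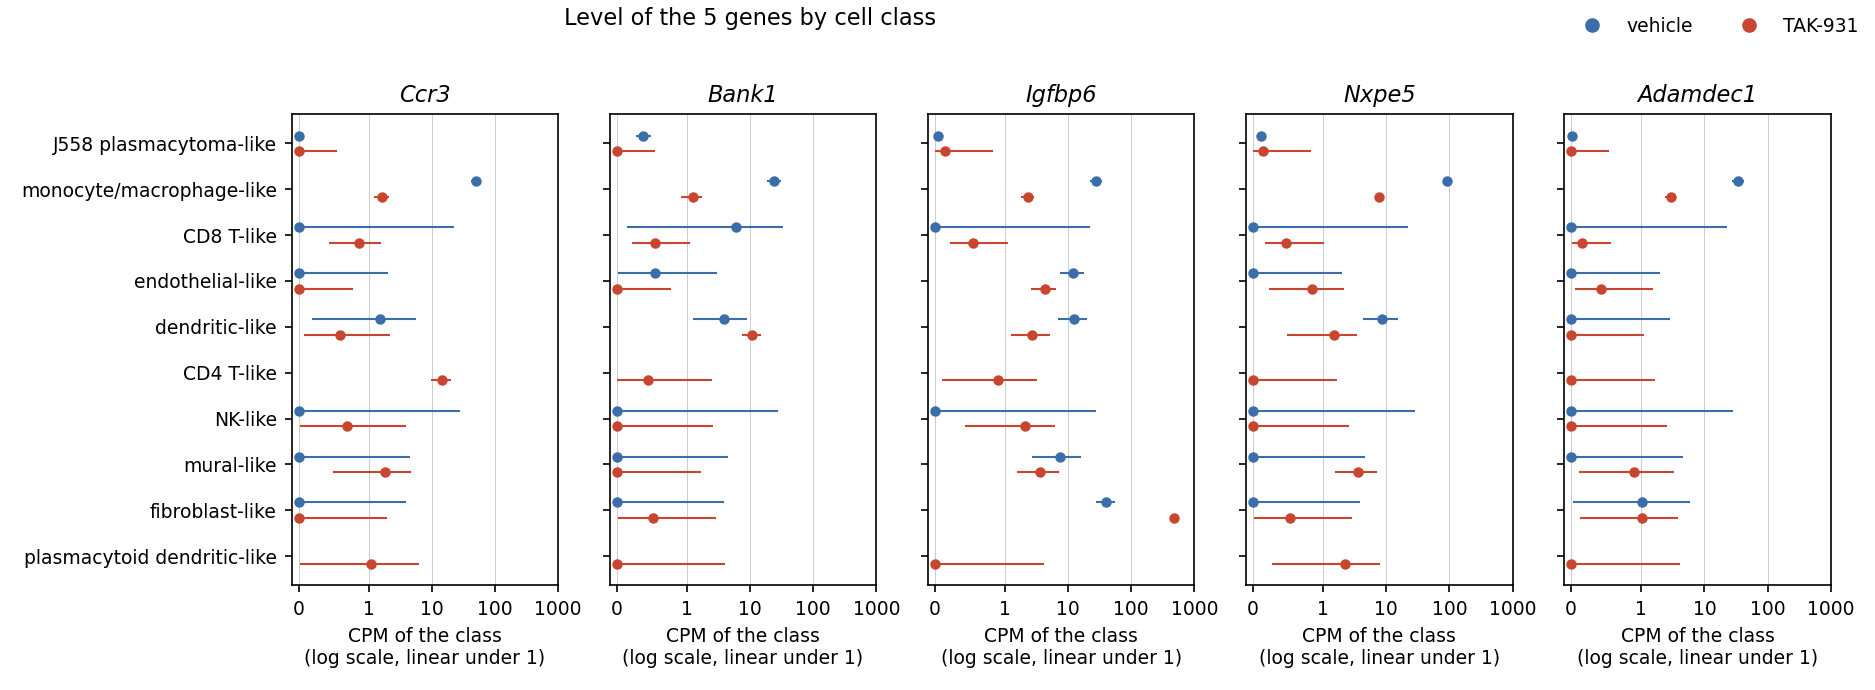
Level of each gene in each cell class (CPM of the class, log scale that is linear under 1) in the vehicle and TAK-931 libraries, with exact Poisson 95% intervals and 1 library per group. Classes with at least 10 cells in a library are drawn, and in monocyte/macrophage-like cells every gene is lower in TAK-931, for example Ccr3 at 50.5 and 1.61 CPM, while Igfbp6 in fibroblast-like cells is higher, at 39.5 and 472 CPM.

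The difference was in the number of cells with a UMI and in the UMIs per such cell. Among 214 vehicle cells 31 had a Ccr3 UMI (14.5%, 10.1 to 19.9 by the exact Clopper-Pearson method), and among 2009 TAK-931 cells 39 did (1.94%, 1.38 to 2.64). Of the 31 vehicle cells, 12 had 5 or more Ccr3 UMIs and the highest had 19, so no single cell set the level. Of the 39 TAK-931 cells, 34 had a single UMI and the highest had 6.

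Nxpe5 was detected in 90 vehicle (42.1%) and 151 TAK-931 cells (7.52%), and Igfbp6 in 43 (20.1%) and 69 (3.43%). Bank1 was detected in 39 (18.2%) and 38 (1.89%), and Adamdec1 in 36 (16.8%) and 51 (2.54%). Single UMIs made up 37 of 38 TAK-931 cells with Bank1 and 62 of 69 with Igfbp6. Of the TAK-931 cells with Adamdec1, 23 of 51 had 2 to 4 UMIs and 1 had 10, and of those with Nxpe5, 47 of 151 had 2 to 4 and 8 had 5 or more.

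Vehicle cells were the shallower ones by their median UMIs. With each cell thinned to 4000 UMIs, a depth that every cell reached, the share with Ccr3 was 7.01% in vehicle and 0.548% in TAK-931, and that with Nxpe5 was 21.5% and 1.84%. Igfbp6 was at 12.1% and 1.10%, Adamdec1 at 9.35% and 1.10% and Bank1 at 5.14% and 0.747%. The order of the libraries was the same for each gene with and without thinning.

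Shares in J558 plasmacytoma-like cells of the vehicle library (median 42399.5 UMIs) were 1.33% for Bank1, 0.466% for Nxpe5, 0.0665% for Adamdec1 and 0% for Ccr3, and 6 of 3006 cells had Igfbp6, all under those of vehicle monocyte/macrophage-like cells in spite of greater depth. The TAK-931 library had few tumour cells, so endothelial-like cells (243 cells, median 15681 UMIs) and CD8 T-like cells (579 cells, median 15331 UMIs) are the background there. In endothelial-like cells Ccr3 and Bank1 were detected in 0, which allows up to 1.23%, Adamdec1 in 0.412% and Nxpe5 in 1.65%. In CD8 T-like cells Ccr3 was detected in 1.55% (0.713 to 2.93), Bank1 in 1.04% (0.381 to 2.24), Nxpe5 in 0.864% and Adamdec1 in 0.345%. The TAK-931 class shares of Ccr3 and Bank1 overlapped those of CD8 T-like cells in their intervals, so no expression is read from them over the whole class. The class levels, 1.61 CPM (1.20 to 2.10) and 1.27 CPM (0.918 to 1.72), also overlapped those of CD8 T-like cells. They lay above endothelial-like cells, where the interval ended at 0.779 CPM for each gene. In TAK-931 cells of the Ccl8/Pf4 cluster, described below, the shares were 8.43% (22 of 261 cells, median 22374 UMIs) for Ccr3 and 6.51% (17 of 261) for Bank1. Thinned to equal depth they were 2.30% (0.848 to 4.94) and 2.68% (1.08 to 5.45), against 0.173% (0.0044 to 0.958) and 0.345% (0.042 to 1.24) in CD8 T-like cells, so that the intervals overlap. The levels over all UMIs lay apart. Ccr3 was at 5.09 CPM (3.48 to 7.19) in that cluster and 0.865 CPM (0.432 to 1.55) in CD8 T-like cells. Bank1 was at 3.34 CPM (2.07 to 5.11) and 0.551 CPM (0.221 to 1.13). Endothelial-like cells carried Igfbp6 in both libraries, so only CD8 T-like cells are its background, with 1.21% (0.487 to 2.48). The TAK-931 class share of Igfbp6 was 3.43% (2.68 to 4.33), and that of its Ly6c2/Chil3 cells, described below, was 7.98%.

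The monocyte/macrophage-like class was made up of 4 clusters, and the 5 genes were not spread evenly over them. They are called here by leading genes: a Ccl8/Pf4 cluster (59 vehicle and 261 TAK-931 cells, with Trem2, Mrc1, Vcam1 and Slc40a1 also among its leading genes), a C1qb/Ms4a7 cluster (71 and 891), a Ly6c2/Chil3 cluster (82 and 677) and an Ace/Treml4 cluster (2 and 180). The 5 genes were among those used to form the clusters, so where they lie is a description.

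All 136 vehicle Ccr3 UMIs were in the Ccl8/Pf4 cluster, in 31 of its 59 cells. The level there was 125 CPM (105 to 148), against 5.09 CPM (3.48 to 7.19) in 22 of 261 TAK-931 cells. Vehicle Ccr3 was at 0 in the C1qb/Ms4a7 and Ly6c2/Chil3 clusters, where counts of 0 allow up to 3.33 and 4.32 CPM. The TAK-931 cells of these clusters had 1.04 and 0.217 CPM, so no difference between the libraries was detectable for Ccr3 outside the Ccl8/Pf4 cluster.

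In the vehicle library Bank1 and Nxpe5 were also highest in that cluster. Bank1 had 51.6 CPM in vehicle and 3.34 CPM in TAK-931 cells of the Ccl8/Pf4 cluster, and 86.2% of its vehicle UMIs in the class were there. In the TAK-931 library the Ace/Treml4 cluster had 3.85 CPM of Bank1 (1.66 to 7.59, 8 UMIs), which its interval does not separate from the Ccl8/Pf4 cluster. Nxpe5 had 164 CPM in vehicle, with 51 of 59 cells positive, and 30.1 CPM in TAK-931, with 97 of 261 positive. Its log2 ratio there was -2.45 (-2.75 to -2.15), against -4.62 for Ccr3 (-5.23 to -4.06) and -3.95 for Bank1 (-4.75 to -3.20). This was the smallest difference of the 5, but that of Igfbp6, from 5 and 2 UMIs, was -3.86 (-7.25 to -1.25), an interval that spans it.

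Nxpe5 also reached the C1qb/Ms4a7 cluster, with 57.7 CPM in vehicle and 2.92 CPM in TAK-931 cells, and Adamdec1 did so with 30.0 and 0.649 CPM. In the Ccl8/Pf4 cluster Adamdec1 stood at 49.8 CPM in vehicle and 1.59 CPM in TAK-931, a log2 ratio of -4.97 (-6.11 to -3.98). Relative to vehicle, 4 of the 5 genes were over 8-fold lower in TAK-931 cells of the Ccl8/Pf4 cluster, although Igfbp6 had only 5 and 2 UMIs there, and 0.413% of 10903 genes were. The median over those genes was -0.21, so the cluster as a whole was somewhat lower on this scale.

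Igfbp6 had another home. Of its vehicle UMIs in the class, 70.7% were in the Ly6c2/Chil3 cluster, at 76.3 CPM (57.1 to 99.8) in 28 of 82 cells. In TAK-931 cells of the Ly6c2/Chil3 cluster it was at 6.63 CPM (5.07 to 8.51) in 54 of 677 cells, a log2 ratio of -3.52 (-4.08 to -2.97). In the Ccl8/Pf4 cluster it was at 4.61 CPM in vehicle, with 4 of 5 UMIs in 1 cell. The gene was thus on the monocyte side of the class and Ccr3 on the macrophage side.

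Adamdec1 in the TAK-931 library was elsewhere again. Of its 97 UMIs there, 72 (74.2%) were in the Ace/Treml4 cluster, at 34.7 CPM (27.1 to 43.7) in 33 of 180 cells. This level is close to the 34.2 CPM of the whole vehicle class. The vehicle library had 2 cells in that cluster, each with 1 Adamdec1 UMI, so the libraries cannot be compared within it.

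**Figure D2:**
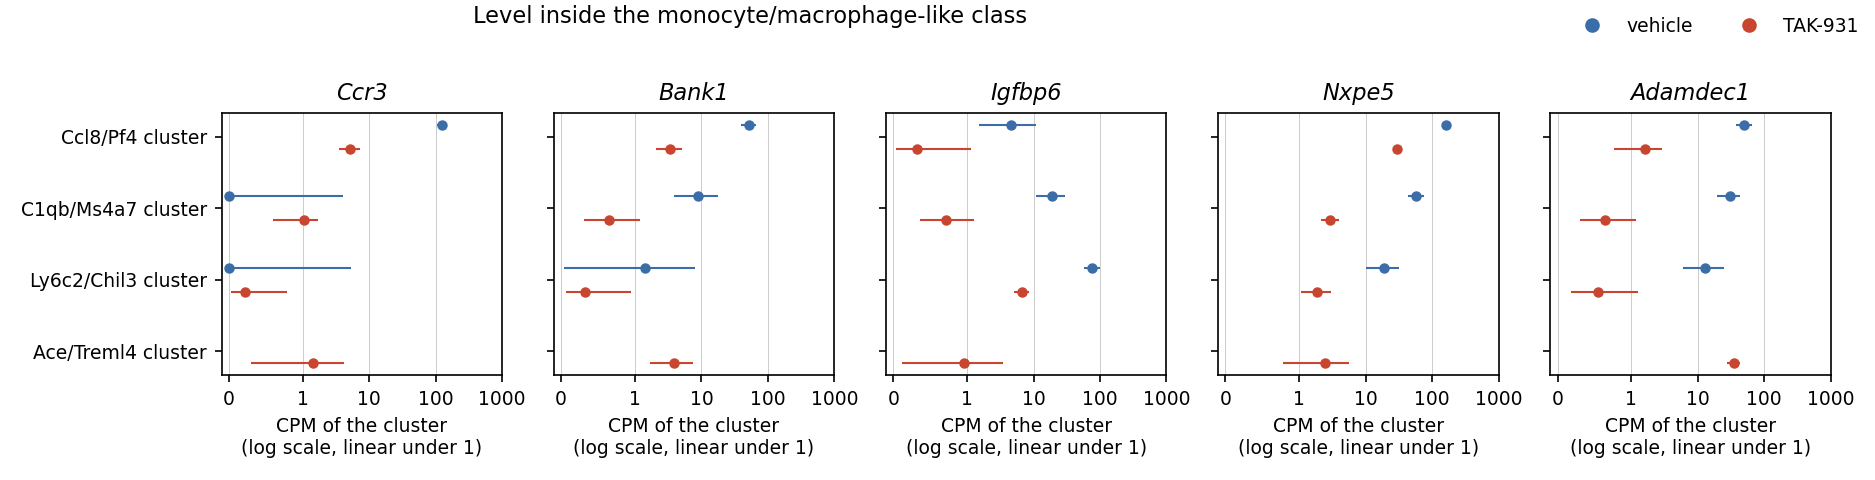
Level of each gene in each cluster of monocyte/macrophage-like cells (CPM of the cluster, log scale that is linear under 1), by library, with exact Poisson 95% intervals. Clusters with at least 10 cells in a library are drawn, and vehicle Ccr3, Bank1 and Nxpe5 peak in the Ccl8/Pf4 cluster (125, 51.6 and 164 CPM), vehicle Igfbp6 in the Ly6c2/Chil3 cluster (76.3 CPM) and TAK-931 Adamdec1 in the Ace/Treml4 cluster (34.7 CPM).

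The TAK-931 UMIs were also set against the vehicle level of the same cluster, with clusters formed in part from these genes. Had TAK-931 cells of the 3 clusters with enough vehicle cells held each gene at the vehicle level of their cluster, 788 Ccr3 UMIs would have been counted, and 50 were. The same sum gave 475 against 34 for Bank1, 1022 against 74 for Igfbp6, 2094 against 251 for Nxpe5 and 894 against 25 for Adamdec1. The observed UMIs were 2.80% (Adamdec1) to 12.0% (Nxpe5) of those numbers. Without the Ccl8/Pf4 cluster the log2 ratio over all 5 genes was -3.48.

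The edge of the Ccl8/Pf4 cluster depended on the clustering. With the 5 genes left out of the clustering, its 59 vehicle cells fell in a larger cluster of 120 vehicle and 878 TAK-931 cells, which still held 100% of the vehicle Ccr3 UMIs, and the ratio over all 5 genes was -3.87 there in place of -3.29. Cells were therefore also divided without clusters, into 3 groups of equal size by the summed level of 6 C1q macrophage genes over both libraries together, a division added after the data were seen. The low-C1q group held 36 vehicle and 705 TAK-931 cells, and the middle and high-C1q groups each held 89 and 652. Vehicle and TAK-931 cells of the high-C1q group had medians of 35376 and 38719 CPM of these genes, so they were near in this respect. They differed by cluster, with 52 of the 89 vehicle and 238 of the 652 TAK-931 cells in the Ccl8/Pf4 cluster.

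In the high-C1q group Ccr3 was at 90.0 CPM in vehicle and 2.72 CPM in TAK-931 cells, and Nxpe5 at 133 and 15.4 CPM. Bank1 was at 39.9 and 1.44 CPM and Adamdec1 at 46.4 and 0.882 CPM. Igfbp6 had 3 and 7 UMIs, and the interval of its log2 ratio ran from -4.09 to 0.63. In the low-C1q group the order of the genes was another, with Igfbp6 at 71.0 CPM in vehicle and 5.71 CPM in TAK-931 and no vehicle UMI of Ccr3, Bank1 or Adamdec1. TAK-931 cells of that group had 5, 10 and 56 UMIs of Ccr3, Bank1 and Adamdec1. The intervals of their log2 ratios began at -4.94, -3.65 and -0.94 and had no upper end, so no order of the libraries is read there. Over all 5 genes the log2 ratio was -2.52 (-3.11 to -1.89) in the low-C1q group, -3.87 (-4.22 to -3.51) in the middle and -3.89 (-4.12 to -3.67) in the high-C1q group. The low-C1q value rests on 29 vehicle UMIs, 23 of Igfbp6 and 6 of Nxpe5.

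**Figure D3:**
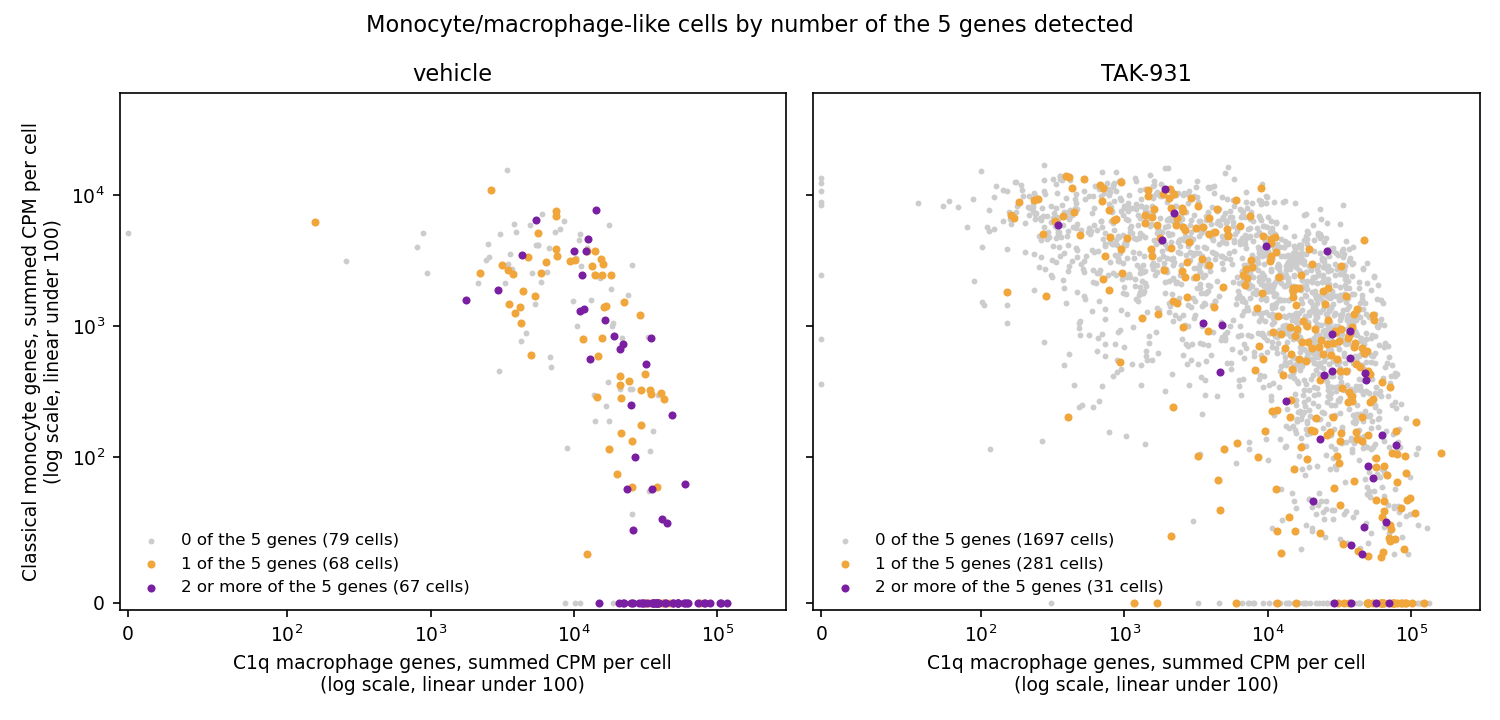
Single monocyte/macrophage-like cells of each library by the summed level of 6 C1q macrophage genes (x axis) and of 6 classical monocyte genes (y axis), both as CPM of the cell on a log scale that is linear under 100, coloured by how many of the 5 genes had a UMI. In vehicle 67 of 214 cells had 2 or more, most of them at high C1q and low monocyte levels, and in TAK-931 31 of 2009 cells did.

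Detection of the 5 genes in the same cells was counted next. Of the 214 vehicle cells, 79 had none of the 5 genes, 68 had 1, 35 had 2, 28 had 3, 3 had 4 and 1 had all 5. Thus 67 cells (31.3%, 25.2 to 38.0) had 2 or more, against 31 of 2009 TAK-931 cells (1.54%, 1.05 to 2.18). After thinning to 4000 UMIs these shares were 10.3% and 0.0996%. Of the 67 vehicle cells, 45 were in the Ccl8/Pf4 cluster, 15 in the C1qb/Ms4a7 cluster and 7 in the Ly6c2/Chil3 cluster.

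Of 31 vehicle cells with Ccr3, 27 also had Nxpe5, and 20 had Bank1. The product of the separate shares would give 13.0 and 5.65 cells, a figure that does not allow for cells' unequal depth. Nxpe5 and Adamdec1 were together in 25 cells (15.1 from the product) and Bank1 and Nxpe5 in 30 (16.4). Igfbp6 was the exception, in the same cell as Ccr3 2 times (6.23) and as Nxpe5 11 times (18.1). Over all 5 genes the 67 cells with 2 or more compare with 65.8 from the product. After thinning, Ccr3 was with Nxpe5 in 9 cells (3.22 from the product) and with Bank1 in 1 (0.771), Nxpe5 with Adamdec1 in 7 (4.30) and with Bank1 in 2 (2.36), and 22 cells had 2 or more genes (19.9). These thinned counts rest on few cells, and those of the pairs with Bank1 are near the product or under it.

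Within the Ccl8/Pf4 cluster the vehicle genes were detected together about as often as the product gives. There 56 of 59 cells had at least 1 gene and 45 had 2 or more, against 46.9 from the product of shares. Vehicle cells with and without Ccr3 in that cluster had medians of 17468 and 17480.5 UMIs. Nxpe5 was at 166 and 162 CPM in them, Bank1 at 62.8 and 38.4 CPM and Adamdec1 at 57.7 and 40.4 CPM. In TAK-931 cells of the cluster 20 had 2 or more genes, against 18.5 from the product.

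**Figure D4:**
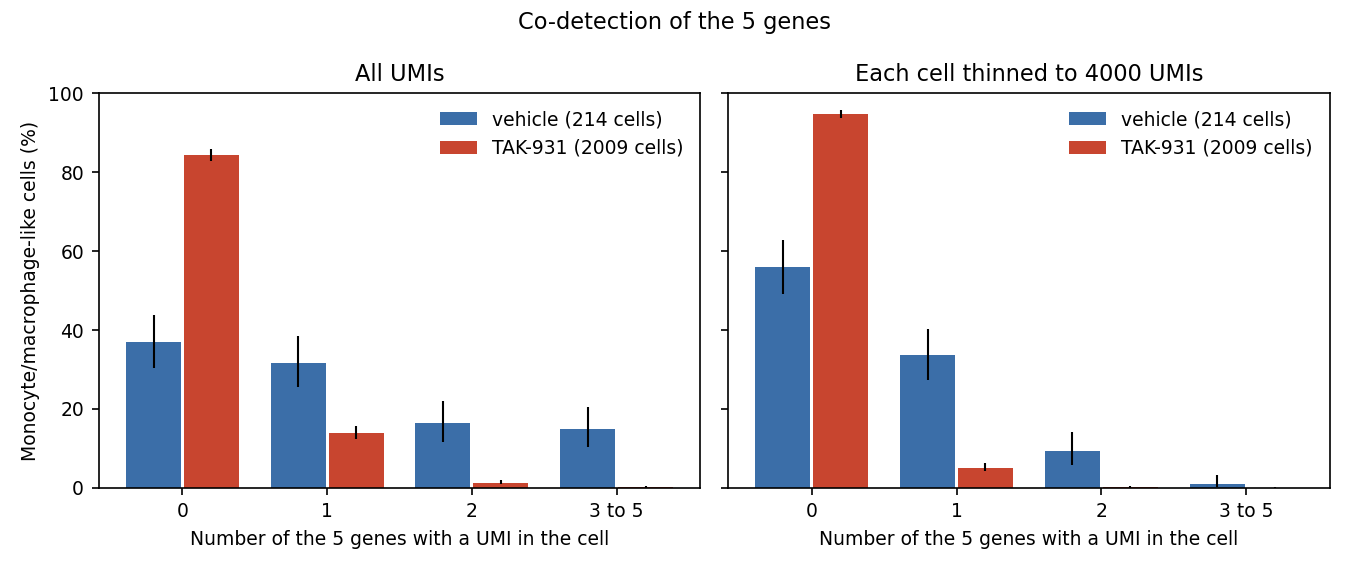
Share of monocyte/macrophage-like cells (percent, bars) with 0, 1, 2 and 3 to 5 of the 5 genes in each library, with exact Clopper-Pearson 95% intervals (lines), for all UMIs and for each cell thinned to 4000 UMIs. With all UMIs 31.3% of vehicle and 1.54% of TAK-931 cells had 2 or more, and after thinning 10.3% and 0.0996%.

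The vehicle cells that carried the genes had macrophage markers, and most markers of eosinophils, mast cells, basophils and B cells were at 0 in those with Ccr3 or Bank1. In the 31 vehicle cells with Ccr3, 7 of 8 eosinophil markers had no UMI, Siglecf, Il5ra, Epx and Prg2 among them, and Cd24a had 1 UMI. All 9 markers of mast cells or basophils were at 0. The 12 monocyte/macrophage markers were all present and summed to 25497 CPM. The plasmacytoid dendritic markers Siglech and Ccr9 had 11 and 19 UMIs from 3.23% and 6.45% of the 31 cells, and their part in the Ccr3 level was not tested.

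In the 39 vehicle cells with Bank1 the B cell markers Ms4a1, Cd79a, Pax5, Fcer2a and Cr2 were at 0, and the whole list of 8 summed to 24.5 CPM, against 0 in the 79 vehicle cells with none of the 5 genes. It had UMIs of Cd22 and Fcrla only. In the 38 TAK-931 cells with Bank1, 6 of the 8 B cell markers had UMIs and the list summed to 52.4 CPM, against 11.5 CPM in the 1697 TAK-931 cells with none of the 5 genes. The 39 TAK-931 cells with Ccr3 had 68.1 CPM of the CD8 T and 78.0 CPM of the CD4 T cell markers, against 41.1 CPM of each in those 1697 cells. Marker lists of other cell types, plasmacytoid dendritic cells and neutrophils among them, are not given for these TAK-931 cells. The part of cells with markers of other types in the Bank1 and Ccr3 levels was not tested. In the 43 vehicle cells with Igfbp6, 6 of 8 fibroblast markers were at 0, Col3a1, Dcn, Lum and Pdgfra among them, and the list summed to 11.3 CPM. Of that list Col1a1 and Pi16 had UMIs.

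Vehicle cells with 2 or more of the genes, compared with the 79 vehicle cells without any, had 36866 against 13974 CPM of the 6 C1q macrophage genes and 446 against 2040 CPM of the 6 classical monocyte genes. Tissue-resident macrophage genes such as Vsig4, Cd163 and Timd4 summed to 180 against 28.7 CPM, and lipid-handling genes to 3253 against 1715 CPM. Cells with Ccr3 were the farthest toward the macrophage side, at 43492 CPM of C1q genes and 74.6 CPM of monocyte genes. Cells with Igfbp6 were on the other side, at 11069 and 2294 CPM. In the TAK-931 library cells with Adamdec1 had 758 CPM of the non-classical monocyte genes, against 225 CPM in TAK-931 cells without any of the 5 genes and 222 CPM in vehicle cells with Adamdec1.

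A further 10 genes were named by the largest ratio between those 67 and 79 cells, among 2849 candidates. Epb41l3, a membrane cytoskeleton protein, had 66 UMIs against 0 and was at least 15.3-fold higher. Slc40a1, the iron exporter ferroportin, was 88.6-fold higher and present in 46 of the 67 cells. Igf1 had 125 against 2 UMIs, and Adcy3, an adenylyl cyclase, 51 against 2. Fcna, a lectin of the complement system, was 18.6-fold higher, Actn1, an actinin, 14.6-fold, Serpinb6a, a protease inhibitor, 14.3-fold and Vcam1, an adhesion molecule, 13.0-fold. For Hspb1 and Ube2c, 88.5% and 40.9% of the UMIs came from 1 cell.

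Several of these genes were themselves lower in TAK-931 monocyte/macrophage-like cells. Fcna had a log2 ratio of -2.51 between the libraries, Slc40a1 of -2.40, Vcam1 of -2.01 and Epb41l3 of -1.66. Within the Ccl8/Pf4 cluster Slc40a1 was at 650 CPM in vehicle and 190 CPM in TAK-931 cells, Fcna at 216 and 64.7 CPM and Serpinb6a at 514 and 465 CPM. Igf1 was at 136 and 181 CPM, so not every gene that marked the vehicle carriers was lower in TAK-931 cells of the cluster. The whole C1q list was at 40541 CPM in vehicle and 51199 CPM in TAK-931 cells of the cluster.

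Outside the monocyte/macrophage-like class, the TAK-931 library carried Ccr3 in CD4 T-like, Bank1 in dendritic-like and Igfbp6 in fibroblast-like cells. It also had 8 Nxpe5 UMIs in 4 of 65 mural-like cells (3.60 CPM, 1.55 to 7.09), with 62.5% of them in 1 cell. Over all barcodes each of the 5 had a higher level in the TAK-931 than in the vehicle library. Over all barcodes Ccr3 was at 1.05 CPM in vehicle and 1.51 CPM in TAK-931, Bank1 at 0.870 and 1.40, Nxpe5 at 2.02 and 3.96, Adamdec1 at 0.725 and 1.65 and Igfbp6 at 1.40 and 14.0 CPM. The monocyte/macrophage-like class was 214 of 3441 kept cells in vehicle and 2009 of 3488 in TAK-931. A whole-library level thus gave the opposite order to the class level.

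Ccr3 in the TAK-931 library had 32 of its 104 kept UMIs in CD4 T-like cells, at 14.3 CPM (9.78 to 20.2) in 16 of 127 cells. This was above the 1.61 CPM of the TAK-931 monocyte/macrophage-like cells and remained 11.2 CPM without the cell with most UMIs. The regulatory T cell factor Foxp3 was detected in 15 of the 16 cells and in 105 of the 111 others, so it did not set the Ccr3 cells apart. CD8 T-like cells had 11 Ccr3 UMIs, 0.865 CPM. The vehicle library had 2 CD4 T-like cells, both without Ccr3, so there was nothing to compare with.

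Bank1 in the TAK-931 library had 36 of 87 kept UMIs in dendritic-like cells, at 10.7 CPM (7.49 to 14.8), with 47.2% of them in 1 cell. The vehicle dendritic-like cells had 5 UMIs, 3.82 CPM (1.24 to 8.92). The log2 ratio was 1.48 (0.13 to 3.19), and without the top cell of each library the levels were 5.65 and 2.29 CPM. The shares of cells with Bank1 did not follow the level, at 6.41% in TAK-931 and 7.27% in vehicle, and at 3.85% and 3.64% after thinning, so no order of the libraries is read from them.

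Igfbp6 had 907 of its 1033 kept TAK-931 UMIs (87.8%) in fibroblast-like cells. There it was at 472 CPM (442 to 504) in 48 of 56 cells, against 39.5 CPM (28.0 to 54.3) in 10 of 22 vehicle cells, a log2 ratio of 3.58 (3.11 to 4.09), the opposite direction from that in monocyte/macrophage-like cells. Without the cell with most UMIs the levels were 359 and 21.9 CPM. After thinning, 62.5% and 13.6% of the cells had a UMI. Pi16, a marker of adventitial fibroblasts, was detected in 33 of the 48 TAK-931 cells with Igfbp6 and in 2 of the 10 vehicle cells with it, and its part in the difference was not tested.

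Across the 32 sums of a cluster and library with at least 10 cells, the genes most like each of the 5 were found by Pearson's r of log2(CPM + 10), over 15082 genes. These sums share libraries and their depth, so r is a description. Ccr3 was most like Slc45a3, a solute carrier (r = 0.870), Bank1 (0.822) and Gpr34, a lysophosphatidylserine receptor (0.812). Bank1 was most like Gpr34 (0.921), Aspa, an aspartoacylase (0.882) and Slc45a3 (0.873). The lists of Ccr3 and Bank1 thus shared Gpr34 and Slc45a3, and all of these genes were highest in vehicle cells of the Ccl8/Pf4 cluster.

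Nxpe5 was most like Bach2os (0.932), Gdf3, a TGF-β family ligand (0.929) and Apoc4, an apolipoprotein (0.929), each of them also highest in vehicle cells of that cluster. Adamdec1 was most like Abcg3 (0.903), Lilra5 (0.901) and Siglece, an inhibitory sialic acid receptor (0.894). Lilra5 was highest in TAK-931 cells of the Ace/Treml4 cluster and Siglece in vehicle cells of the C1qb/Ms4a7 cluster. Igfbp6 was most like Vcan, a matrix proteoglycan (0.876), Klhl40 (0.854) and Rbp4, a retinol carrier (0.843), all highest in TAK-931 fibroblast-like cells. Among the 5 themselves r was highest for Bank1 and Nxpe5 (0.845), and that of Igfbp6 with the others ran from -0.059 to 0.180.

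Genes related to the 5 by function were compared between the libraries in monocyte/macrophage-like cells, over those with at least 10 UMIs. At least 2-fold lower in TAK-931 were 8.85% of all 13446 genes, and at least 2-fold higher 14.4%, or 7.82% where a vehicle count of 0 is set to the floor of 3 UMIs. Of 5 counted ligands of CCR3, 3 were at least 2-fold higher with the floor and 1 lower. Their median log2 ratio was 1.22 with the floor and 2.23 without, against 0.0031 over all genes without it. Ccl7 (MCP-3) was at 56.4 CPM in vehicle and 349 CPM in TAK-931, Ccl8 (MCP-2) at 1615 and 3775 CPM and Ccl5 (RANTES) at 162 and 762 CPM, although 43.9% of the vehicle Ccl5 UMIs were in 1 cell. Ccl24 (eotaxin-2) went the other way, at 69.4 and 14.5 CPM, a log2 ratio of -2.26 (-2.51 to -2.01). The eotaxin gene Ccl11 had 0 and 16 UMIs, a TAK-931 level under what a vehicle count of 0 allows, so no fold is given.

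Of 10 other chemokine receptors counted, 3 were at least 2-fold lower and 2 higher, with a median of -0.19. The fractalkine receptor Cx3cr1 was at 262 CPM in vehicle and 86.2 CPM in TAK-931, a log2 ratio of -1.60 (-1.72 to -1.48). Ccr7, at -1.20, had 60.9% of its vehicle UMIs in 1 cell. The monocyte receptor Ccr2 was near equal, at 151 and 158 CPM.

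None of the 11 counted adaptors and kinases around BANK1 was 2-fold different. The list had a median log2 ratio of -0.076, and its kinase Lyn was at 653 CPM in vehicle and 631 CPM in TAK-931. Of 7 insulin-like growth factor genes counted, 2 were lower and, with the floor, 2 higher, with a median of -0.65 (-0.54 without the floor). The receptors Igf1r and Igf2r had log2 ratios of -1.07 and 1.49, and that of Igfbp7, another binding protein, was 4.68 (2.19 to 9.98) from 1 and 313 UMIs. Of the other Nxpe genes Nxpe3 had 2 and 51 UMIs and Nxpe4 1 and 12, and of 7 ADAM genes counted 1 was 2-fold lower, with a median of -0.14. Since the 5 were picked for the lowest ratios in this contrast, the related genes are not ranked against them.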

How the data were processed

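The deposited matrices hold raw UMI counts per gene and cell barcode, which the authors made with Single Cell 3′ chemistry and left without normalization; the headers name Cell Ranger 6.0.0. The labels name mm10, while the methods name a human build for single-cell data. Clustering used scanpy 1.11.5 on 2000 variable genes (log of counts scaled to 10000 per cell, cap 10), 20 principal components, 20 neighbours and the Leiden method (leidenalg 0.10.2, resolution 0.5, seed 0). A class needed at least 3 detected markers. No doublet step is named in the methods and none was applied. Removing cells with markers of 2 lineages was an alternative, as were other cell filters, clusterings, scalings and thinning. CPM carry exact Poisson intervals, shares exact Clopper-Pearson intervals and ratios exact binomial ones, at 95%, and a floor of 3 counts bounds a 0. Genes were counted from 10 UMIs over both sums. The 5 genes, gene lists and comparisons were chosen with earlier results of these data known. Named genes were the 5, the next 5 in rank, the 3 most alike per gene, the 10 highest ratios in carriers and related genes past 2-fold from 50 UMIs, and Ccl11, Ccr2, Lyn and Nxpe4 were named after their values were seen. On simulated counts, 200 genes lowered 8-fold gave a median log2 ratio of -3.00 and intervals covered 96% of them. Gene positions come from the reference annotation of GRCm38. Some genes that this rule or the lists hold are not reported here.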

Additional observations from a re-analysis of the deposited data

How the results depend on the processing

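Over all 5 genes the log2 ratio in monocyte/macrophage-like cells was -3.84 and lay between -3.91 and -3.50 under 13 alternatives. Lower gene limits, over 1000 and over 500 per barcode, gave -3.54 and -3.50, and the other 11 stayed within its interval. Those limits raised the class from 214 to 290 and 335 vehicle cells and from 2009 to 2181 and 2433 TAK-931 cells. The share of kept vehicle UMIs of the 5 genes in that class was 77.6%, and it was 81.0% with over 1000 genes and 86.4% after thinning. The share of vehicle cells with 2 or more genes was 31.3%, and it was 22.4% with over 500 genes and 10.3% after thinning. The Ccl8/Pf4 cluster had a ratio outside its main interval under 5 of 7 alternatives. Its ratio of -3.29 became -3.52 and -3.99 under those gene limits, -3.87 with no mitochondrial limit, -3.87 with the 5 genes left out of clustering and -2.95 with median-ratio scaling. These settings, chosen after seeing the data, put its cells in clusters of 120 to 148 vehicle cells, except for the scaling. Of 42 related genes counted, 17 were 2-fold different, and of 34 with at least 50 UMIs 11 were. With a count of 0 set to 3 UMIs, also chosen after seeing the data, 15 of the 42 were. No value changed sign. Free RNA was estimated at 4.00% in vehicle and 3.54% in TAK-931. With 1 library per group no depth of sequencing replaces replicate animals. No paired analysis was possible because each group was 1 library.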
